A study of Mus musculus with 12 samples.

Results

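FK506-binding proteins of the cytosol and nucleus were followed in mouse 3T3 cells, a fibroblast line, across 3 doses of Shld1. The members were 8 genes, Fkbp1a, Fkbp1b, Fkbp3, Fkbp4, Fkbp5, Fkbp8, Fkbp15 and Fkbpl, chosen by symbol in the platform's probe annotation. They had 11 of the 38784 probes and were 8 of the 16969 annotated genes. The groups were untreated control cells and cells given Shld1 at 10 nM, 100 nM and 1 µM, with 3 arrays each and 12 in all. On every array the cell RNA carried Cy5 and a commercial mouse reference RNA from Stratagene carried Cy3. Each value is therefore a log2 ratio of cells over reference RNA, not a level. How long the cells were treated, and whether they carried a fusion protein, could not be learned from the labels. The labels number the replicates but do not say that they were separate cultures, so the p-values measure only the spread between these samples.

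FK506-binding proteins share a domain that folds around the drugs FK506 and rapamycin and, in many of them, catalyses the turning of proline bonds. FKBP12, encoded by Fkbp1a, sits on calcium release channels and on type I receptors of the TGF-beta family, and its complexes with the drugs inhibit calcineurin or mTOR. Larger relatives such as FKBP52 (Fkbp4) and FKBP51 (Fkbp5) carry a second module that docks on HSP90 and tune the glucocorticoid receptor. Shld1 is a synthetic, cell-permeable ligand made to bind an engineered unstable FKBP12 mutant that marks fused proteins for destruction. By its title the study asked how the ligand affects 3T3 cells, and the question here is whether the cells' own FKBP transcripts differed between doses.

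The labelled cell type was checked against its markers, which also served to read the direction of the ratio and so are not independent of it. Of 13 fibroblast markers, 12 lay above the reference in control cells, 10 were called higher and 1, Pdgfra at -0.51, was called lower. The matrix gene Lum stood at 4.20 and the leukocyte gene Ptprc at -2.62, and 0 of 5 leukocyte markers lay above the reference. Other lists were mixed. Of 4 adipocyte markers, 2 were called higher, Adipoq at 0.98 and Fabp4 at 0.97, and 1 lower. Of 3 muscle markers, 1 was called higher, Des at 0.94, and 0 lower. Of 4 epithelial markers, 2 lay above the reference, 0 were called higher and 2 were called lower. Arrays held 30649 to 33615 values and correlated pairwise at 0.69 to 0.87. Precision is limited by the number of arrays, and signal over background is not known for any probe.

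No member gene passed the test for a change with Shld1, from FKBP12 itself to the HSP90 co-chaperones FKBP52 and FKBP51. Of 11 member probes, 0 passed an adjusted p of 0.05 at 10 nM, where 0% of all 30357 tested probes passed. The count was likewise 0 at 100 nM, against 0% of all probes, and 0 at 1 µM, against 0.00329% of all probes (limma with Benjamini-Hochberg adjustment over all probes). Neither the mean of the 3 doses (0% of all probes) nor a linear trend over dose rank (0.00329% of all probes) called a member. At an unadjusted p under 0.05 the member counts were 0, 1 and 0 at 10 nM, 100 nM and 1 µM, where 2.67%, 3.23% and 4.23% of all probes passed. The median change of the member probes was -0.06 at 10 nM, 0.01 at 100 nM and -0.02 at 1 µM on the log2 scale, where the medians of all probes were 0.00, 0.02 and -0.01. For all 11 member probes the 95% interval of the change lay within 2-fold at each dose, as it did for 80.0%, 80.4% and 77.9% of all probes. It lay within 1.5-fold for 6 member probes at 10 nM, 7 at 100 nM and 7 at 1 µM, where it did for 32.7%, 31.7% and 30.6% of all probes. The median SE at each dose was 0.20 for the member probes and 0.24 for all probes. All arrays of 10 nM lay above all control arrays for 1 member probe, of Fkbp4, and below them for 0, where 3.92% of all probes lay above and 3.83% below. At 100 nM 1 member probe lay above, of Fkbp4, and 1 below, of Fkbp5, where 4.86% and 4.56% of all probes did. At 1 µM 1 lay above, again of Fkbp4, and 0 below, where 3.94% and 4.85% did. The probe above control was Fkbp4 probe 17086 at each dose, set against the same control arrays, so these counts are not separate results.

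**Figure D1:**
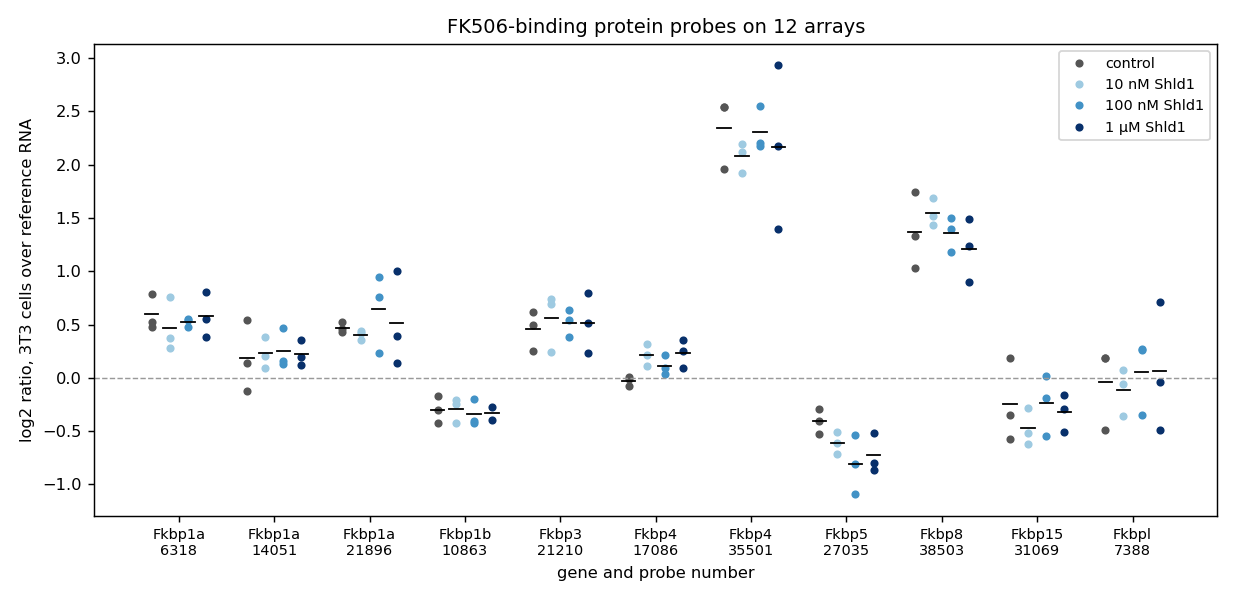
Log2 ratio of 3T3 cells over reference RNA (vertical axis) for the 11 member probes, 1 point an array and a bar for the group mean, with control, 10 nM, 100 nM and 1 µM Shld1 from left to right within each probe. Fkbp4 probe 35501 and Fkbp8 lie above the reference on all 12 arrays, Fkbp5 lies below it on all 12, and the dose groups of most probes overlap.

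The plot of the values by array shows the overlap of the dose groups within most probes. A probe's distance from 0 cannot be set against another probe's, since each probe has its own response, so the comparisons that follow stay within a probe.

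Fkbp1a, whose product is FKBP12, is the natural relative of the engineered protein that Shld1 was made to bind. Its probe 6318 read 0.48, 0.52 and 0.79 in control cells, 0.37, 0.76 and 0.28 at 10 nM, 0.55, 0.54 and 0.48 at 100 nM, and 0.38, 0.80 and 0.55 at 1 µM. All 12 arrays lay above the reference, and the 4 groups overlapped. The change at 1 µM was -0.02 (SE 0.18, 95% interval -0.42 to 0.38), with -0.13 at 10 nM and -0.07 at 100 nM, adjusted p 0.999 at 1 µM by limma.

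The other Fkbp1a probes did not pass at any dose either. Probe 14051 averaged 0.18 ± 0.34 in control cells, 0.23 ± 0.15 at 10 nM, 0.25 ± 0.19 at 100 nM and 0.22 ± 0.12 at 1 µM (SD, n = 3 each), and its change at 1 µM was 0.04 (-0.38 to 0.46). Probe 21896 read 0.53, 0.43 and 0.46 in control cells and 1.00, 0.39 and 0.14 at 1 µM, so its treated arrays spread to both sides of the control arrays. Its change was 0.18 at 100 nM (-0.33 to 0.69) and 0.04 at 1 µM (-0.47 to 0.55). Averaged over its 3 probes, Fkbp1a changed by 0.02 at 1 µM (SE 0.14). The probes did not follow each other from array to array, with Pearson's r of 0.20, -0.26 and -0.12 between pairs over 12 arrays that share their labelling and scan. The RefSeq table lists pseudogenes of Fkbp1a, and signal from their transcripts cannot be told apart from its own here.

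Fkbp1b encodes a close relative of FKBP12 that is best known for binding the ryanodine receptor of heart muscle. Its single probe read -0.42, -0.30 and -0.17 in control cells, -0.24, -0.21 and -0.43 at 10 nM, -0.42, -0.20 and -0.41 at 100 nM, and -0.39 and -0.27 at 1 µM, where replicate 3 was blank. All 11 values lay below the reference and the groups overlapped. The change at 1 µM was -0.03 (SE 0.18, -0.42 to 0.36), from 2 treated arrays.

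Fkbp4 and Fkbp5 encode the HSP90-docking pair FKBP52 and FKBP51, which are known to act in opposite ways on glucocorticoid receptor signalling. Fkbp4 probe 17086 read -0.01, -0.08 and 0.01 in control cells, 0.32, 0.11 and 0.21 at 10 nM, 0.22, 0.09 and 0.04 at 100 nM, and 0.25, 0.09 and 0.35 at 1 µM. All 9 Shld1 arrays, the lowest at 0.04, lay above all 3 control arrays, the highest at 0.01. That was the case for 0.362% of all tested probes, or 110 of 30357, and 0.366% had all Shld1 arrays below all control arrays. Of the 11 member probes this was the only one set apart in either direction, so the share is not a p-value for a probe named beforehand. The differences were small, 0.24 at 10 nM (SE 0.15), 0.14 at 100 nM and 0.26 at 1 µM (SE 0.15, -0.07 to 0.58), and the last had an unadjusted p of 0.108 and an adjusted p of 0.999 by limma. This separation also held without centring and after quantile normalization, checks added after the values were seen.

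The second Fkbp4 probe did not show that separation. Probe 35501 read 2.54, 2.54 and 1.96 in control cells, 2.20, 1.93 and 2.12 at 10 nM, 2.55, 2.20 and 2.18 at 100 nM, and 2.93, 2.17 and 1.39 at 1 µM. Its changes were -0.27 at 10 nM (-0.97 to 0.43), -0.04 at 100 nM and -0.18 at 1 µM (-0.88 to 0.52). The probes correlated at r = -0.25 over the 12 arrays. Which of the probes follows the Fkbp4 transcript was not tested. Averaged over both, Fkbp4 changed by 0.04 at 1 µM (SE 0.19).

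Fkbp5 had the largest average difference among the 8 genes in the direction of lower values. Its probe read -0.40, -0.52 and -0.29 in control cells, -0.71, -0.61 and -0.50 at 10 nM, -0.81, -1.09 and -0.53 at 100 nM, and -0.80, -0.51 and -0.86 at 1 µM. The 100 nM arrays all lay below the control arrays, by a narrow margin, while 1 array at 10 nM and 1 at 1 µM lay within the control range. Of all tested probes, 4.56% had every 100 nM array below every control array. The change was -0.21 at 10 nM (SE 0.18, unadjusted p 0.279), -0.41 at 100 nM (SE 0.18, -0.80 to -0.01, unadjusted p 0.045) and -0.32 at 1 µM (SE 0.18, -0.72 to 0.07, unadjusted p 0.101). Adjusted over all probes by limma these gave 1, 1 and 0.999, so no dose passed, and neither did the mean of the doses at -0.31 (SE 0.15, unadjusted p 0.0574).

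**Figure D2:**
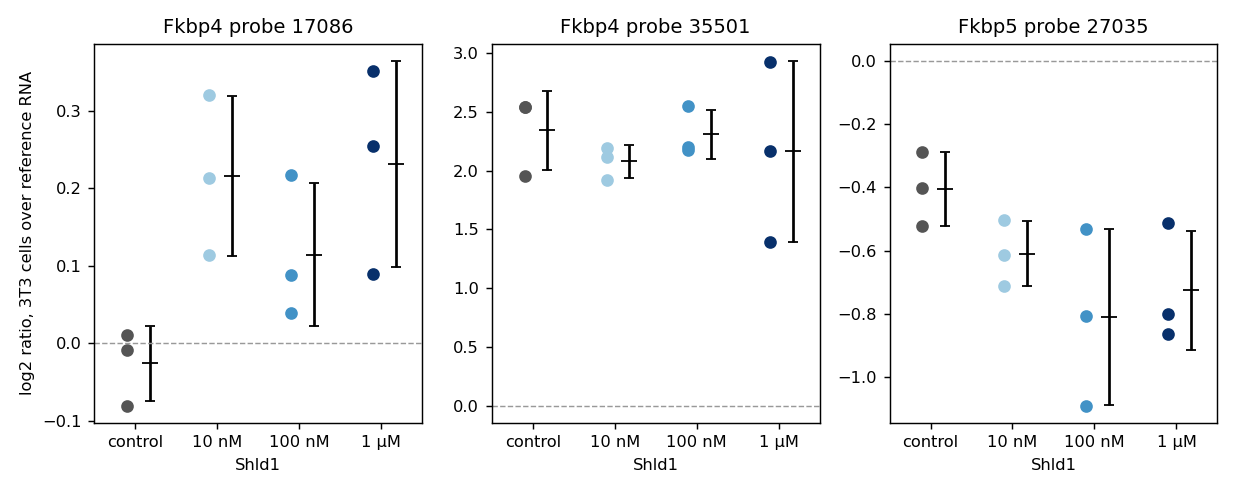
Log2 ratio of 3T3 cells over reference RNA (vertical axes, each on its own scale) by dose of Shld1 for both Fkbp4 probes and for Fkbp5, with 1 point an array and the mean ± SD of 3 arrays beside them. The Shld1 arrays of Fkbp4 probe 17086 all lie above its control arrays, those of probe 35501 overlap them, and the Fkbp5 means run from -0.40 in control to -0.81 at 100 nM and -0.73 at 1 µM.

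The plot of the co-chaperone pair shows by eye how narrow these margins were. The upstream 250 bases of both genes are given because Fkbp4 is known as a heat shock target and Fkbp5 as a glucocorticoid target. They come from RefSeq on GRCm38.p6, read 5′ to 3′ on the minus strand, and end at the base before the transcript start. Fkbp4 lies at chr6:128438657-128438906 and Fkbp5 at chr17:28486150-28486399. Capitals mark matches to CCAAT, the GC box GGGCGG and the heat shock core GAANNTTC on either strand.
Fkbp4: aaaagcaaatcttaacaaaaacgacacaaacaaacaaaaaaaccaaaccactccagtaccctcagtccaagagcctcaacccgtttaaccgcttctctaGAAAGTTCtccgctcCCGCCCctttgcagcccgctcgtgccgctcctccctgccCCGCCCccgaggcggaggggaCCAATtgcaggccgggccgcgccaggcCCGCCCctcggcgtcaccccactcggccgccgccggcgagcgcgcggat
Fkbp5: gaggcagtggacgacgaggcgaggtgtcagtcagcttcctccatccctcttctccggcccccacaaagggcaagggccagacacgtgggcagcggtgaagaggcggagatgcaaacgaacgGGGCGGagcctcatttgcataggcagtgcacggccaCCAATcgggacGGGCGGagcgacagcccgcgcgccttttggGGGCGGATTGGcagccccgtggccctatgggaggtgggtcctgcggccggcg
Fkbp4 held the heat shock letters once, 151 bases before the start, as did 6.69% of 32851 upstream windows of that length, and no other member held them. The TATA letters TATAAA (12.4% of windows) and the glucocorticoid response core AGAACA (16.1%) were in 0 of the 8 member windows, CCAAT (33.8%) was in 5 and GGGCGG (32.7%) in 6. The windows held 10 CpG in Fkbpl, more than in 62.2% of all windows, and 16 to 25 in the other members, more than in 74.6% to 89.3%, against a median of 6 over all windows. These matches describe letters and say nothing of binding, and sites outside the 250 bases were not searched.

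Neither the nuclear nor the membrane-anchored member passed at any dose. Fkbp3, encoding the nuclear FKBP25 that binds DNA and histone deacetylases, read 0.62, 0.26 and 0.50 in control cells and 0.80, 0.51 and 0.23 at 1 µM. Those groups overlapped, and the change was 0.10 at 10 nM, 0.06 at 100 nM and 0.06 at 1 µM (-0.38 to 0.50). Fkbp8 encodes FKBP38, which is held in the outer mitochondrial membrane and binds BCL2. Its probe averaged 1.37 ± 0.36 in control cells, 1.55 ± 0.13 at 10 nM, 1.36 ± 0.16 at 100 nM and 1.21 ± 0.30 at 1 µM (SD, n = 3 each). The change at 1 µM was -0.16 (-0.63 to 0.31). The control arrays ran from 1.03 to 1.74 and the 1 µM arrays from 0.90 to 1.49, so the groups overlapped.

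The control arrays of Fkbp15 and Fkbpl fell on both sides of the reference. Fkbp15, whose product is linked to actin and endosome movement, read -0.58, 0.19 and -0.35 in control cells, against -0.51, -0.29 and -0.16 at 1 µM. The change at 1 µM was -0.07 (-0.56 to 0.42). Fkbpl, which encodes an HSP90-associated protein that stabilises the cell cycle inhibitor p21, read 0.18, 0.18 and -0.49 in control cells and -0.04, -0.49 and 0.71 at 1 µM. Its change there was 0.10, with an interval from -0.57 to 0.77.

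**Figure D3:**
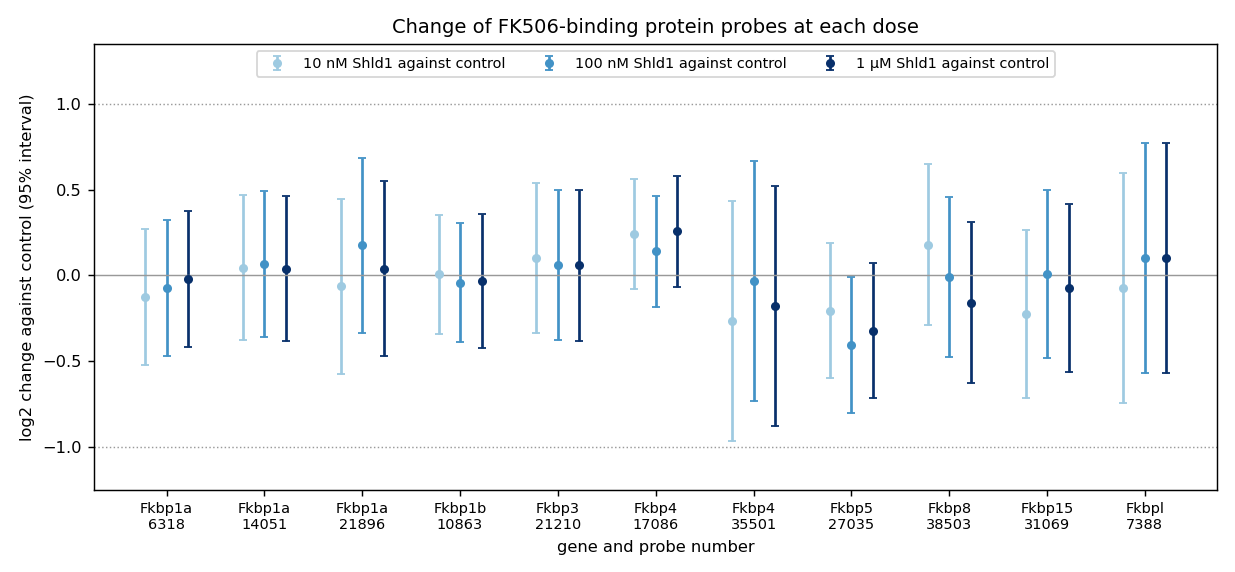
Log2 change against control (vertical axis) of the 11 member probes at 10 nM, 100 nM and 1 µM Shld1, with bars for the 95% interval from limma. Every interval lies within the dotted lines at 2-fold, and the only interval that leaves out 0, that of Fkbp5 at 100 nM, belongs to an adjusted p of 1.

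The plot of changes by dose shows that the interval took in 0 for each probe and dose except Fkbp5 at 100 nM.

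Set against the reference RNA, the untreated cells read higher for the probes of Fkbp8 and Fkbp3, for 2 of the 3 Fkbp1a probes and for 1 of the 2 Fkbp4 probes, and lower for the Fkbp5 probe. With 1 value a gene, Fkbp1b was called lower too. The reference is a commercial mouse RNA and is 1 RNA on all arrays, so its own spread is not in the test. Without a dye swap, a probe's own dye bias and a true difference between cells and reference cannot be told apart. The direction was read from the dyes and from the fibroblast and leukocyte genes, and if it ran the other way every higher would be lower. Of 11 member probes, 5 were called higher and 1 lower in control cells, where 43.3% of all probes were called, 23.4% higher and 19.9% lower. The share called higher was above that of all probes, and the share called lower was below it. Of the 11 probes, 3 are of Fkbp1a and 2 of Fkbp4, and a departure from that background was not tested.

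Fkbp4 probe 35501 stood at 2.35 (1.85 to 2.84, adjusted p 1.42e-05 by limma) in control cells, while probe 17086 stood at -0.03 (adjusted p 0.862), so the gene's 2 probes disagreed. Fkbp8 stood at 1.37 (1.04 to 1.70, adjusted p 3.55e-05) and was above the reference on all 12 arrays. Fkbp1a was called by probe 6318 at 0.60 (0.32 to 0.88, adjusted p 0.00297) and by probe 21896 at 0.47 (adjusted p 0.0375), but not by probe 14051 at 0.18 (adjusted p 0.302). The call of probe 21896 was lost without centring, where it stood at 0.32 (adjusted p 0.134), and without any 1 of the control arrays.

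Fkbp3 stood at 0.46 (0.15 to 0.77, adjusted p 0.0219) and Fkbp5 at -0.40 (-0.68 to -0.12, adjusted p 0.0238). The Fkbp3 call was lost without centring (adjusted p 0.0954) and without control replicate 1 or 3, and the Fkbp5 call without control replicate 1 or 2. Fkbp1b at -0.30 narrowly missed the threshold (adjusted p 0.0516) and passed it without centring (adjusted p 0.00963), after quantile normalization (0.0479), with 1 value a gene (0.0330) and without 1 µM replicate 3 (0.0495). Fkbp15 at -0.25 (adjusted p 0.232) and Fkbpl at -0.04 (adjusted p 0.898) did not pass. Without control replicate 1 the count of called member probes dropped to 3, and that of all probes to 9656, against 13154 with it.

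Taken as the mean of all 4 groups, 7 member probes were called higher and 3 lower than the reference, where 71.3% of all probes were called, 35.6% higher and 35.6% lower. Fkbp5 then stood at -0.64 (-0.78 to -0.50), Fkbp15 at -0.32 and Fkbp1b at -0.32, with adjusted p-values by limma of 2.44e-06, 0.00322 and 0.000594. Fkbpl was the only member probe that was not called, at -0.01 (adjusted p 0.949). The mean of the 4 groups includes the control arrays, so its signs are not independent of theirs. The members' values over the 12 arrays placed the same genes above and below the reference as in control cells alone, with Fkbp4 probe 17086 at 0.13 (adjusted p 0.0362) as the exception in sign. That call of probe 17086 was lost without centring and without any 1 of 8 arrays. Fkbp1a probe 14051, called at 0.22 (adjusted p 0.0119), stood at 0.07 without centring (adjusted p 0.370).

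No gene of the lists of FKBP partners passed the test at any dose. Genes were given 1 value each, and 0% of 14524 genes passed at any dose. In the HSP90 chaperone cycle 0 of 14 measured genes passed, with 3 of 14 above 0 at 10 nM (median -0.08), 12 at 100 nM (median 0.06) and 6 at 1 µM (median -0.02). Of all genes, 48.4% lay above 0 at 10 nM, 53.6% at 100 nM and 46.8% at 1 µM. The list's smallest unadjusted p-values at 1 µM belonged to Dnaja1 at -0.23, Cdc37 at 0.23 and Stub1 at -0.13, a co-chaperone of HSP70, a kinase-loading co-chaperone and a ubiquitin ligase. Among receptors, channels and drug targets bound by FKBP12, 0 of 9 measured genes passed, with 5 above 0 at 10 nM, 5 at 100 nM and 3 at 1 µM, where the median was -0.12. Itpr3, an inositol trisphosphate receptor, stood at 1 µM at 0.50 (SE 0.19, unadjusted p 0.0206, adjusted p 0.998 by limma).

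The glucocorticoid receptor and its commonly induced genes, which include the genes that respond beside Fkbp5 in many tissues, gave 0 of 13 past the threshold, with 8 above 0 at each dose and a median of 0.06 at 1 µM. At that dose Dusp1, a phosphatase of MAP kinases, stood at 0.64 (SE 0.34), the NF-kB inhibitor gene Nfkbia at 0.33 and the transcription factor gene Zbtb16 at -0.50. The receptor gene Nr3c1 itself stood at -0.03. For the partners of FKBP8, FKBP3 and FKBPL, 0 of 8 passed, with 4 above 0 at 10 nM (median 0.03), 3 at 100 nM (median -0.03) and 7 at 1 µM (median 0.03), where Bcl2 stood at 0.13. Among FKBP-domain genes of the endoplasmic reticulum and Aipl1, 0 of 6 passed, with 3 above 0 at 10 nM, 3 at 100 nM and 1 at 1 µM, where the median was -0.11, with Fkbp7 at -0.43, Fkbp14 at -0.26 and Fkbp2 at 0.29.

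**Figure D4:**
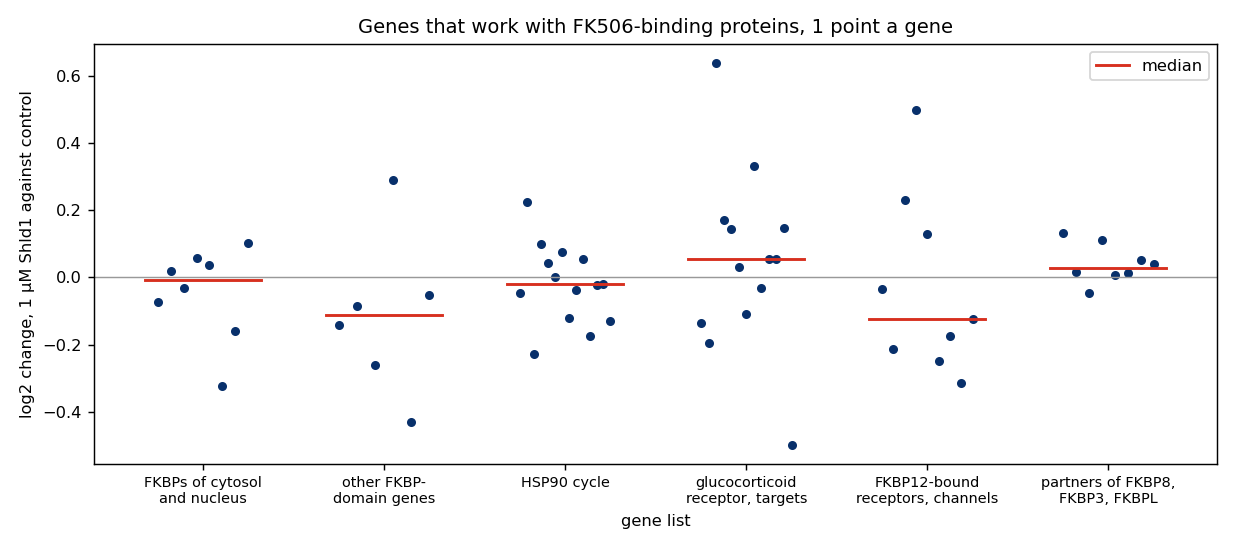
Log2 change at 1 µM Shld1 against control (vertical axis) with 1 point a gene and a red bar for the median of each list. The medians lie between -0.12 and 0.06, and no gene passed an adjusted p of 0.05.

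The plot of the lists shows the single genes of each list on both sides of 0 at 1 µM. In control cells against the reference, where 45.2% of genes were called, 26% higher and 19.2% lower, the HSP90 cycle had 9 of 14 genes called higher and 1 lower. Ptges3, the p23 co-chaperone, stood at 1.98, St13 at 1.53 and Hsp90aa1 at 0.60, while Cdc37 stood at -0.83. The Hsp90aa1 value is a mean of probes that disagreed, at 0.63, 1.30 and -0.13. The glucocorticoid list had 2 called higher and 5 lower of 13, with Sgk1 at 2.20, Dusp1 at -1.85 and Nr3c1 at -0.56. The FKBP12-bound list had 4 called higher and 2 lower of 9, with Tgfbr1 at 1.16 and Mtor at -0.47, and the partner list 4 higher and 2 lower of 8.

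Cell type markers were read on the same arrays as the members. The mean of the 13 fibroblast markers ran from 1.34 to 1.67 in control cells, 1.21 to 1.38 at 10 nM, 1.28 to 1.54 at 100 nM and 1.03 to 1.28 at 1 µM. Only the 1 µM range lay apart from control. No other list used here had a range apart from control at any dose, and how often lists of other genes do so was not tested. The lowest change at 1 µM was that of Lum at -1.26. Against control, 2 of 13 lay above 0 at 10 nM, 7 at 100 nM and 3 at 1 µM, where 48.4%, 53.6% and 46.8% of all genes did. The mean of the 5 leukocyte markers ran from -1.20 to -0.63 at 1 µM, against -1.79 to -0.78 in control cells. Against control, 4 of 5 lay above 0 at 10 nM, 1 at 100 nM and 5 at 1 µM. At 1 µM 3 of 4 epithelial, 3 of 3 muscle and 3 of 4 adipocyte markers and the 1 measured endothelial marker also lay above 0. None of these genes passed the test at any dose, and their part in the member values was not tested. In RNA of whole cultures, fewer cells of a type and less RNA per cell cannot be told apart.

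The genes whose values ran most like those of 2 members over the 12 arrays were taken by Pearson's r. For Fkbp1a probe 6318 they were Recql at 0.89, Mospd1 at 0.87 and Gpx8 at 0.86, and without the 2 farthest arrays these were 0.88, 0.87 and 0.76. The 95th percentile was 0.51, which genes picked as the highest of 19049 compared probes had to exceed. For Fkbp5 they were the fibroblast matrix gene Lum at 0.84, Recql5 at 0.83 and Smap2 at 0.83, and without the 2 farthest arrays these were 0.76, 0.65 and 0.80. The arrays share the reference RNA and the dyes, and the values describe likeness over these arrays only.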

How the data were processed

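RNA of 3T3 cells in 4 groups of 3 arrays was compared on 2-colour oligonucleotide arrays, with the sample in Cy5 and the reference RNA in Cy3 per the labels. The values used are the authors' deposited log2 ratios, 1 per probe and array. Log base 2 is assumed, and the authors' background correction, normalization, spot filters and genome build were not given in the sources used here. Between 13.3% and 21.0% of probes were blank on an array, and scanner intensities were not analysed here.

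Of 38784 probes, 26173 had 1 symbol in the platform's annotation, 28 several and 12583 none. The 11 member probes were the same by symbol and by gene identifier. Array medians lay between -0.20 and -0.10 and were set to 0. Probes with values on at least 2 of 3 arrays in every group were tested, 30357 in all, including all 11 member probes, 10 of them with a value on all 12 arrays. Groups were compared with limma 3.58.1 in R 4.3.3 on all 12 arrays with group as the term, two-sided, with Benjamini-Hochberg adjustment over all probes and a threshold of 0.05. List genes were fitted the same way with 1 value a gene, the mean of its probes, for 14524 genes. The method was tested on simulated data. Alternatives changed the centring, filter, empirical Bayes step, replicate block and samples used. Figures were drawn with matplotlib 3.10.9.

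The 8 members are always named, and of each list the genes past the threshold or up to 3 with the smallest unadjusted p at 1 µM. Nr3c1 was also given at 1 µM, a choice made after its value was seen. The members and lists were chosen with earlier results of these data known.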

Additional observations from a re-analysis of the deposited data

How the results depend on the processing

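No member probe passed at any dose, in the mean of the doses or in the trend under any of the alternatives, among them both fits with the replicate block, which also called 6 member probes in control cells against the reference and 10 in the mean of the 4 groups. Same-numbered arrays of different groups correlated at -0.10 to 0.25, over 0.1 in 9 of 18 pairs, and other-numbered ones at -0.31 to 0.21. Of the 12 arrays, 8 correlated best with an array of their own number, and the array titles run in order of that number. Pairing is not established by these values, and the consensus correlation was 0.0456. The member count in control cells against the reference ran from 3, without control replicate 1, to 7 as arrays were left out, and that of the mean of the 4 groups from 9 to 10. Of 1271 recomputed values, 690 were dose changes, of which 50 turned sign, and of 438 ratios to the reference 9 did. Among the ratios that kept their sign, 18 lost a call and 5 gained one. None of the dose changes that turned had passed, and their cause was not tested. The turned and gained counts include means over a gene's probes, set against single probes of Fkbp1a and Fkbp4.

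With 1 value a gene, the mean of its probes, Fkbp1a stood at -0.049 at 10 nM, 0.057 at 100 nM and 0.020 at 1 µM. Fkbp4 stood at -0.012, 0.052 and 0.038 at those doses, and at 1.16 in control cells against the reference. Each was counted as a turn for a probe of the gene with the other sign, such as Fkbp4 probe 17086 at -0.03 against the reference. After quantile normalization Fkbp1b stood at -0.019 at 10 nM and Fkbp1a probe 21896 at -0.0091 at 1 µM. Without centring, which shifts array medians by 0.095 to 0.203, Fkbp8 stood at 0.00033 at 100 nM and Fkbp4 probe 17086 at -0.016 in the mean of the 4 groups.

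With an array left out, changes at 10 nM ran from -0.11 to 0.22 for Fkbp1a probe 14051, -0.058 to 0.073 for Fkbp1b and -0.30 to 0.046 for Fkbpl. At 100 nM they ran from -0.13 to 0.023 for Fkbp1a probe 6318, -0.088 to 0.25 for probe 14051, -0.11 to 0.022 for Fkbp1b, -0.041 to 0.14 for Fkbp3, -0.23 to 0.062 for Fkbp4 probe 35501, -0.18 to 0.18 for Fkbp8, -0.16 to 0.22 for Fkbp15 and -0.12 to 0.31 for Fkbpl. At 1 µM they ran from -0.13 to 0.079, -0.12 to 0.22 and -0.20 to 0.22 for Fkbp1a probes 6318, 14051 and 21896, -0.10 to 0.031 for Fkbp1b, -0.084 to 0.20 for Fkbp3, -0.56 to 0.21 for Fkbp4 probe 35501, -0.33 to 0.025 for Fkbp8, -0.24 to 0.14 for Fkbp15 and -0.22 to 0.38 for Fkbpl. Against the reference, Fkbp4 probe 17086 ran from -0.044 to 0.0015 and Fkbpl from -0.15 to 0.18 in control cells, and Fkbpl from -0.089 to 0.060 in the mean of the 4 groups. The call of Fkbp4 probe 17086 in that mean was lost without any 1 of 8 arrays.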
